A study of Homo sapiens with 4 samples.

Results

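The genes described here are 48 genes of mitosis, the kinetochore and the spindle. They were chosen by name, and each was found as 1 entry of a table of 20329 genes. The levels come from polyA-selected RNA of 2 derivatives of MDA-MB-231, a human triple-negative breast cancer line. BM1 (1833) is the derivative from bone metastasis and LM2 (4175) the derivative from lung metastasis. Each derivative carried a stably expressed lentiviral shRNA, either a non-specific one (control) or one against hnRNPM (knockdown), an RNA-binding protein of the heterogeneous nuclear ribonucleoprotein family. All 4 groups were grown in the same DMEM-based medium with serum, and every group, controls included, had been infected with a lentivirus. There was 1 library per line and treatment, so 4 libraries in all, with no second shRNA against hnRNPM and no uninfected cells among them.

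Mitosis is driven by cyclin-dependent kinase 1 with its cyclins, and is held before anaphase by the spindle assembly checkpoint until every kinetochore has attached to spindle microtubules. The anaphase-promoting complex then marks cyclin B and securin for destruction, the chromatids part, and the midzone and contractile ring divide the cell. The mRNAs of most of these genes rise together in G2 and M phase, so that in cultured cancer cells they are widely used as a readout of proliferation. Much of that rise is known to depend on the CHR element and on CCAAT boxes in their promoters, which the DREAM and MYB-MuvB complexes and the factor NF-Y bind.

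The promoter windows of the genes were read first for these letters, because they are what the group shares at the level of sequence. RefSeq windows (build GRCh38.p14, 250 bases before to 50 after a start site) were matched by symbol for 41 of the 48 genes, which gave 52 windows. The letters TTTGAA or TTCGAA, on either strand, stood in 35 of these 52 windows (67.3%), against 16.4% of all 35116 windows. The CCAAT letters, on either strand, also stood in 35 (67.3%), against 34.6% of all windows. An E2F site, searched as TTTGGCGC or TTTCGCGC on either strand, stood in 3 windows (5.77%), against 1.15% of all windows. Windows of CDK1 share a site, so per gene it stood in 2 of 41 (4.88%), against 1.4% of all genes. A match describes the letters in these windows and is not evidence that a factor binds there. The following sites are shown because the mRNA levels of their genes lay on different sides of the controls. Each is read 5′ to 3′ on the gene's strand, with the CHR letters in capitals.
SPC25: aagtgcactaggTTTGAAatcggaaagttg
CDC20: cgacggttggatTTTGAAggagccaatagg
KIF18A: aagtggcttgggTTTGAAtattgtggttga
KIF20B: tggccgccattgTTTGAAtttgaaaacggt
KIF23: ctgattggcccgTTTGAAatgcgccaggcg
CCNB2: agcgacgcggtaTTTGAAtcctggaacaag
PLK1: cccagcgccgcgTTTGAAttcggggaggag
BUB1B: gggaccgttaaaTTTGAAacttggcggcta

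The SPC25 site lies at chr2:168890416-168890445 on the minus strand, with its capitals 3 bases before the start. The CDC20 site lies at chr1:43358904-43358933 on the plus strand, 65 bases before the start, and its last bases hold the CCAAT letters as well. The KIF18A site lies at chr11:28108149-28108178 on the minus strand, 10 bases before the start. The KIF20B site lies at chr10:89701602-89701631 on the plus strand, 25 bases after the start, where the same letters follow directly a second time. The KIF23 site lies at chr15:69414282-69414311, 55 bases before the start. The CCNB2 site lies at chr15:59105105-59105134, 29 bases before the start. The PLK1 site lies at chr16:23678848-23678877, also 29 bases before the start. The BUB1B site lies at chr15:40161034-40161063, 23 bases before the start. The last 4 are on the plus strand. These genes share the letters and were picked for their different directions, so the directions say nothing about the letters. SPC25 and CDC20 were lower in both knockdowns, KIF18A was higher in both, and BUB1B was higher in BM1 and lower in LM2. Of the 10 genes with a window that were at least 2-fold higher in the BM1 knockdown, 9 held the CHR letters in a window, and of the 3 that were at least 2-fold lower, 2 did. Counted in the same way per gene, 32 of the 41 (78%) held them, against 19.5% of all genes.

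Levels are given as FPKM, fragments scaled by transcript length and library depth, on which genes can be set against each other. Changes are knockdown minus control on log2(FPKM + 1), and each ± is a standard error of the change averaged over both lines. HNRNPM itself measured 171 (control) and 28.4 FPKM (knockdown) in BM1, against 132 and 20.3 FPKM in LM2, so that 16.6% and 15.4% of the control level was left. Depth, inferred from the step size of low values, was 22782000 to 41480000 fragments per library. Markers of MDA-MB-231 lay above the median of all genes tested (8.36 to 9.02 FPKM) in all 4 libraries. VIM measured 1160 to 2354, LGALS1 408 to 763 and AXL 250.1 to 374 FPKM. CAV1 measured 148 to 335, CD44 155 to 223 and EGFR 31.4 to 80.6 FPKM. Of 6 markers low in triple-negative lines, ESR1 and PGR had no entry. ERBB2, at 13.5 to 21.9 FPKM, lay above that median. EPCAM (2.999 to 4.59 FPKM), GATA3 (2.501 to 3.33 FPKM) and CDH1 lay below it. CDH1 rose under knockdown in BM1 (0.489 to 4.08 FPKM) and LM2 (0.170 to 2.297 FPKM). Of 10 markers of other cell types 3 were in the table, with LUM at 0.0213 to 1.61 FPKM, PDGFRB at 0.699 to 3.24 FPKM and ACTA2 at 0.246 to 1.04 FPKM, and the other 7 were not analysed here. LUM and PDGFRB were higher and ACTA2 was lower in both knockdowns than in both controls, and their part in the results below was not tested. With 1 library per group, a change within a line compares 2 libraries and has no p-value. In bulk RNA, fewer cells in mitosis and less mRNA per mitotic cell cannot be told apart.

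As deposited, the 48 genes did not shift in the same direction in both lines under hnRNPM knockdown. Most were lower in LM2 and a small majority was higher in BM1, a difference that could not be tested. With a trend with GC content and length removed, 43 (89.6%) were lower in LM2, against 53.6% of all genes. In BM1 26 (54.2%) then were, against 49.7%. CENPE, the kinetochore motor that carries chromosomes to the metaphase plate, rose, and SPC25, a subunit of the NDC80 complex that holds microtubules at the kinetochore, fell. The other 46 did not pass the test over both lines. In BM1, 27 genes were higher and 21 lower in the knockdown than in the control, with changes from -1.64 to 1.86 and a median of 0.22. In LM2, 11 were higher and 37 lower, with changes from -1.27 to 0.92 and a median of -0.19. The medians over all 13928 genes tested were 0.0047 in BM1 and -0.04 in LM2, and 50.3% of those genes were higher in the BM1 knockdown and 46.5% in the LM2 knockdown. Scaling by median-ratio size factors instead of FPKM as deposited gave 26 genes higher in BM1 and 13 in LM2. The summed FPKM of the 48 genes was 0.606% (control) and 0.588% (knockdown) of the total in BM1, against 0.609% and 0.505% in LM2.

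**Figure D1:**
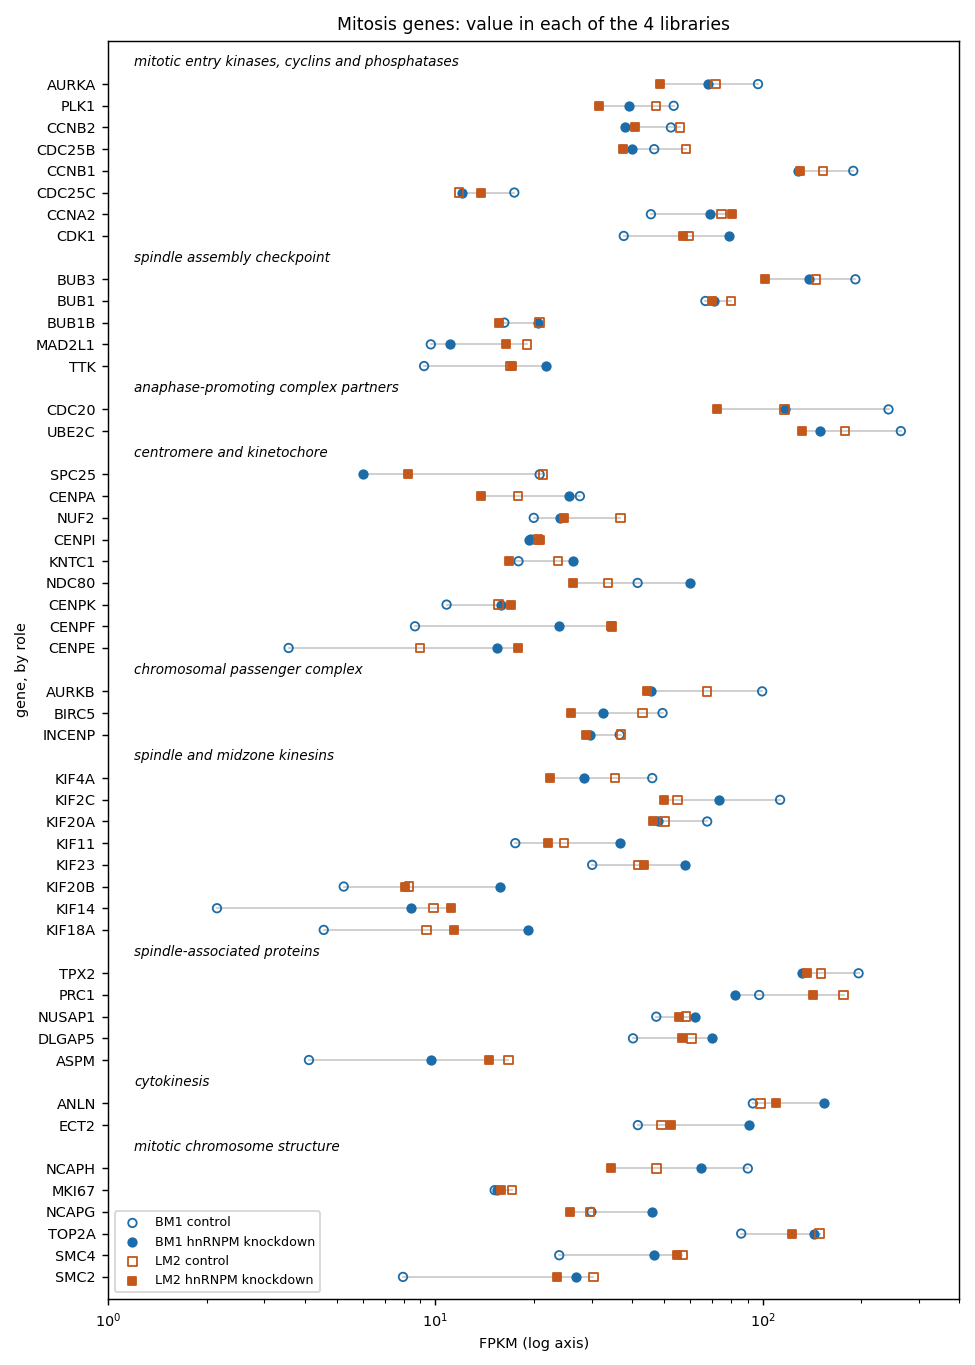
FPKM (log axis) of each of the 48 genes in the BM1 control (open circle), BM1 knockdown (filled circle), LM2 control (open square) and LM2 knockdown (filled square) libraries, 1 library per symbol, grouped by role. The BM1 control is the lowest of the 4 libraries for 23 genes, among them KIF14 at 2.15 FPKM, while SPC25 is lower in both knockdowns than in both controls.

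The test over both lines was limma on log2(FPKM + 1), with line and treatment as terms, Benjamini-Hochberg adjustment over the 13928 genes and a threshold of 0.05. It called 5.47% of all genes, 2.71% as higher and 2.76% as lower, and 2 of the 48 (4.17%), which is near that background. At an unadjusted p under 0.05 there were 9 of the 48 (18.8%), against 24.9% of all genes. The fit has 1 residual degree of freedom, the difference between the lines' changes, which enters its error, so whether the lines differ could not be tested. An exact permutation test of the 2 pairs cannot go below a two-sided p of 0.5. limma also moderated each gene's error towards a variance shared over the genes tested (empirical Bayes). The p-values and each ± therefore rest in large part on the other genes. Nothing in the labels says how many separate cultures stand behind a library, so the p-values do not measure a spread between cultures.

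SPC25 (ENSG00000152253.8, chromosome 2, 169690642 to 169769881, minus strand, GRCh37) had 20.8 FPKM in control and 6.02 in knockdown cells of BM1, and 21.3 and 8.22 FPKM in those of LM2. The controls of the 2 lines were nearly equal and both knockdowns lay well below them, with no overlap. The control was 3.46-fold the knockdown in BM1 and 2.59-fold in LM2. The change over both lines was -1.46 ± 0.26 on the log2 scale (limma, adjusted p = 0.0207). SPC25 was the only one of the 48 to change at least 2-fold the same way in both lines, against 3.86% of all genes. It had the smallest estimated fragment number of any of the 48, 186 in the BM1 knockdown. The gene overlaps NOSTRIN on the opposite strand, and the sources used here do not say whether strand was used in counting.

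CENPE (ENSG00000138778.11, chromosome 4, 104026963 to 104119566, minus strand, GRCh37) measured 3.56 (control) and 15.4 FPKM (knockdown) in BM1, against 8.96 and 17.9 FPKM in LM2. Both knockdowns lay above both controls, and the controls themselves were 2.52-fold apart. The level in the knockdown was 4.34-fold that of the control in BM1 and 1.996-fold in LM2. The change over both lines was 1.39 ± 0.30 on the log2 scale (limma, adjusted p = 0.0350). CENPE has one of the longest and most AT-rich transcripts of the set, at 8612 bases and 35.3% GC, and with the trend of change with GC content and length removed from all genes its change was 0.80 (limma, adjusted p = 0.0876). SPC25, with 1354 bases and 40.0% GC, kept its call under that removal, at -1.63 (limma, adjusted p = 0.0309). Neither call held with a pseudocount of 0.1, with no filter on low values, under quantile normalization, without pairing by line or without any one library.

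The 9 genes of the centromere and kinetochore had the widest spread of any role. Their median change was 0.51 in BM1 and -0.35 in LM2, and 6 were higher in the BM1 knockdown while 6 were lower in the LM2 knockdown. CENPF, a large protein of the outer kinetochore, had BM1 levels of 8.66 FPKM without and 23.8 FPKM with the knockdown, and LM2 levels of 34.6 and 34.4 FPKM. The BM1 control was the lowest by far, and the LM2 libraries were level. For SPC25's partners in the NDC80 complex, neither of which passed the test, NUF2 differed by 0.25 in BM1 and -0.55 in LM2, and NDC80, which names the complex, by 0.52 and -0.35. CENPI and CENPK, of the inner kinetochore, differed by -0.02 and 0.51 in BM1 and by 0.01 and 0.12 in LM2. CENPA, the histone H3 variant that marks centromeres, differed by -0.10 and -0.35, and shares its strand with the overlapping gene SLC35F6. KNTC1, a subunit of the ROD-ZW10-Zwilch complex, differed by 0.53 and -0.47.

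Spindle assembly checkpoint genes (5) had median changes of 0.18 in BM1 and -0.20 in LM2. TTK, the kinase that starts checkpoint signalling, had 9.23 FPKM in control and 21.7 in knockdown cells of BM1, and 16.9 and 17.2 FPKM in those of LM2. The BM1 control was low and the BM1 knockdown high, with both LM2 libraries between them. BUB3, which brings BUB1 and BUBR1 to kinetochores, measured 192 (control) and 139 FPKM (knockdown) in BM1, against 146 and 101.7 FPKM in LM2. Both knockdowns of BUB3 lay below both controls, and its average change was -0.49 ± 0.25 on the log2 scale (limma, adjusted p = 0.266). BUB1, BUB1B (which encodes BUBR1) and MAD2L1 differed by 0.09 to 0.32 in BM1 and by -0.40 to -0.18 in LM2.

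Both partners of the anaphase-promoting complex were abundant, at 72.3 to 265 FPKM, and were lower in both knockdowns. CDC20, the activator that the checkpoint restrains, had BM1 levels of 243 FPKM without and 117 FPKM with the knockdown, and LM2 levels of 117 and 72.3 FPKM. The LM2 control was no higher than the BM1 knockdown, so the groups met in the middle. The change of CDC20 over both lines was -0.86 ± 0.26 on the log2 scale (limma, adjusted p = 0.0880). UBE2C, the ubiquitin-conjugating enzyme of the complex, had 265 FPKM in control and 150.2 in knockdown cells of BM1, and 179 and 132 FPKM in those of LM2. Both knockdowns lay below both controls, and the change was -0.63 ± 0.26 on the log2 scale (limma, adjusted p = 0.179). GENCODE 29 lists 4 pseudogenes named after UBE2C and 1 named after CDC20, so their levels are uncertain if reads were shared with these copies.

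All 3 genes of the chromosomal passenger complex, which corrects wrong attachments and guides cytokinesis, were lower in both knockdowns, with both knockdown libraries below both controls in each, as in 22.6% of all genes. AURKB, its kinase, measured 99.8 (control) and 45.5 FPKM (knockdown) in BM1, against 67.6 and 44.5 FPKM in LM2. The knockdowns of the 2 lines were nearly equal and the controls were not. The change of AURKB was -0.85 ± 0.27 on the log2 scale (limma, adjusted p = 0.0976). INCENP, the scaffold of the complex, measured 36.6 (control) and 29.7 FPKM (knockdown) in BM1, against 36.9 and 28.8 FPKM in LM2. The LM2 level was 1.01-fold that of BM1 in control and 0.970-fold in knockdown, and the average change was -0.32 ± 0.25 on the log2 scale (limma, adjusted p = 0.467). BIRC5, which encodes survivin, differed by -0.59 in BM1 and -0.70 in LM2.

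Among the 8 genes of mitotic entry, the median change was -0.45 in BM1 and -0.34 in LM2, and 6 were lower in each line. AURKA, the centrosomal kinase, had BM1 levels of 96.9 FPKM without and 67.9 FPKM with the knockdown, and LM2 levels of 71.7 and 48.6 FPKM. Both knockdowns lay below both controls, though the LM2 control was close to the BM1 knockdown, and the change was -0.53 ± 0.25 on the log2 scale (limma, adjusted p = 0.233). CDK1, the kinase of mitotic entry, had 37.6 FPKM in control and 79.0 in knockdown cells of BM1, and 59.3 and 57.2 FPKM in those of LM2. The BM1 libraries lay on either side of the LM2 libraries, which did not separate. Of the cyclin partners of CDK1, CCNB1 differed by -0.55 and CCNB2 by -0.46 in BM1, and CCNA2, cyclin A2, by 0.59. In LM2 the same cyclins differed by -0.23, -0.45 and 0.11. PLK1, a kinase that promotes entry and spindle formation, differed by -0.44 in BM1 and -0.56 in LM2. The phosphatases that activate CDK1 differed by -0.22 and -0.63 (CDC25B) and by -0.50 and 0.20 (CDC25C).

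The 8 kinesins of the spindle and midzone had the largest median change in BM1, 0.97, beside -0.08 in LM2, and they split by gene. KIF18A, which limits the swing of chromosomes at the metaphase plate, measured 4.55 (control) and 19.2 FPKM (knockdown) in BM1, against 9.39 and 11.4 FPKM in LM2. Both knockdowns were above both controls, with 4.21-fold in BM1 and 1.22-fold in LM2, and the change was 1.06 ± 0.37 on the log2 scale (limma, adjusted p = 0.126). KIF14, a kinesin of cytokinesis, had BM1 levels of 2.15 FPKM without and 8.41 FPKM with the knockdown, and LM2 levels of 9.87 and 11.2 FPKM. The BM1 control again was the library that stood apart. KIF20B, which acts in the midzone, had 5.24 FPKM in control and 15.7 in knockdown cells of BM1, and 8.30 and 8.07 FPKM in those of LM2, so that here the BM1 knockdown stood apart. KIF11, the motor that keeps spindle poles apart, measured 17.5 (control) and 36.7 FPKM (knockdown) in BM1, against 24.7 and 22.02 FPKM in LM2. The same BM1 libraries were lowest and highest. KIF4A, the chromokinesin that stops midzone microtubules from growing, was lower in both knockdowns, with 46.0 (control) and 28.5 FPKM (knockdown) in BM1, against 35.4 and 22.3 FPKM in LM2. Its knockdowns lay below both controls, and the change was -0.66 ± 0.25 on the log2 scale (limma, adjusted p = 0.152). KIF2C and KIF20A differed by -0.61 and -0.49 in BM1 and by -0.13 and -0.12 in LM2, and KIF23, a subunit of centralspindlin, by 0.92 and 0.06.

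Of the 5 spindle-associated proteins, all were lower in the LM2 knockdown, with changes of -0.31 to -0.07, and 3 were higher in the BM1 knockdown. ASPM, a protein of the spindle poles, had BM1 levels of 4.10 FPKM without and 9.71 FPKM with the knockdown, and LM2 levels of 16.7 and 14.6 FPKM. Both LM2 libraries were above both BM1 libraries, so line separated ASPM and treatment did not. TPX2, which activates AURKA on the spindle, had 197 FPKM in control and 132 in knockdown cells of BM1, and 151 and 136 FPKM in those of LM2. Its knockdowns lay below both controls, with a change of -0.36 ± 0.26 on the log2 scale (limma, adjusted p = 0.432). NUSAP1, DLGAP5 and PRC1, which bind spindle or midzone microtubules, differed by 0.39, 0.79 and -0.25 in BM1.

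Both cytokinesis genes were higher in both knockdowns than in both controls, as were 21.8% of all genes, and neither passed the test. ECT2, the exchange factor that activates RhoA at the division plane, measured 41.6 (control) and 90.8 FPKM (knockdown) in BM1, against 49.1 and 52.6 FPKM in LM2. ANLN, the anillin scaffold of the contractile ring, had BM1 levels of 93.4 FPKM without and 154 FPKM with the knockdown, and LM2 levels of 98.5 and 110.2 FPKM. In both genes the BM1 knockdown was high and the other 3 libraries lay close together. The changes over both lines were 0.60 ± 0.30 for ECT2 and 0.44 ± 0.27 for ANLN on the log2 scale (limma, adjusted p = 0.259 and 0.347).

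The 6 genes of mitotic chromosome structure were all lower in the LM2 knockdown, with changes of -0.45 to -0.05, while 5 were higher in the BM1 knockdown. SMC2, a core subunit of both condensins, had 7.96 FPKM in control and 27.0 in knockdown cells of BM1, and 30.4 and 23.5 FPKM in those of LM2. The BM1 control was low, and the BM1 knockdown lay between the LM2 libraries. NCAPH, the condensin I subunit that closes the ring, measured 90.2 (control) and 64.8 FPKM (knockdown) in BM1, against 47.4 and 34.4 FPKM in LM2. Here both BM1 libraries were above both LM2 libraries, and within each line the knockdown was the lower, with changes of -0.47 and -0.45. The other condensin subunits among the 48, SMC4 and NCAPG, differed by 0.93 and 0.60 in BM1 and by -0.05 and -0.20 in LM2. Condensin subunits outside the 48, NCAPD2, NCAPD3, NCAPG2 and NCAPH2, were lower in the knockdown in both lines. TOP2A, topoisomerase II alpha, differed by 0.73 and -0.28, and MKI67, which encodes the proliferation marker Ki-67, by 0.02 and -0.11.

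In BM1, 14 of the 48 genes (29.2%) differed at least 2-fold between the 2 libraries, against 16.3% of all genes. Of these, 11 were higher in the knockdown (22.9%, against 10.1% of all genes), namely ASPM, CDK1, CENPE, CENPF, ECT2, KIF11, KIF14, KIF18A, KIF20B, SMC2 and TTK. The other 3, AURKB, CDC20 and SPC25, were lower (6.25%, against 6.2%). In LM2 only SPC25 passed that size (1 of 48, against 8.06% of all genes, and 4.24% for lower genes alone), and none was 2-fold higher (against 3.83%). The opposite pair of signs, a higher BM1 knockdown with a lower LM2 knockdown, was seen in 18 of the 48 (37.5%), against 17.3% of all genes, and 19 were lower in both lines, against 36.2%. A further 9 were higher in both lines, against 33% of all genes. The reverse pair was seen in CDC25C and CENPI, against 13.6% of all genes. The change in BM1 was at least 2-fold above that in LM2 in 12 genes (25%), against 7.29% of all genes, and at least 2-fold below it in none, against 3.41%.

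**Figure D2:**
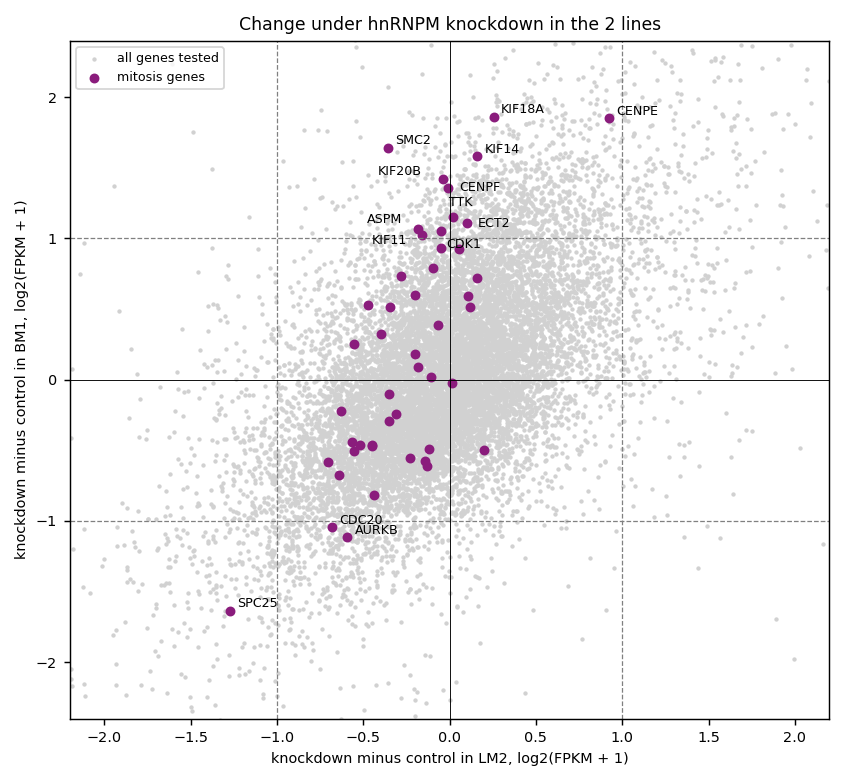
Knockdown minus control in BM1 (vertical) against LM2 (horizontal), both on log2(FPKM + 1), for the 48 mitosis genes (purple) and all genes tested (grey, with those beyond the axes not drawn), and dashed lines at 2-fold. Most of the 14 labelled genes lie high up near 0 in LM2, while CENPE lies at 1.85 and 0.92 and SPC25 at -1.64 and -1.27.

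The BM1 control was the lowest of the 4 libraries for 23 of the 48 genes (47.9%), against 31% of all genes, and the highest for 15, against 29.7%. The LM2 knockdown was the lowest for 18, against 26.5%, and the LM2 control for 1, CDC25C, against 19.5%. Separation of treatments by any amount, with both knockdowns above both controls, was seen for ANLN, CENPE, CENPK, ECT2, KIF18A, KIF23 and TTK (7 genes, against 21.8% of all genes). It could be narrow, as for TTK, with 17.2 FPKM in the LM2 knockdown and 16.9 FPKM in the LM2 control. Separation in the other direction was seen for 14 genes, against 22.6%. These were AURKA, AURKB, BIRC5, BUB3, CCNB1, CCNB2, CDC25B, INCENP, KIF20A, KIF4A, PLK1, SPC25, TPX2 and UBE2C.

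Within the set, the direction in BM1 went with transcript composition. Length and GC content were taken from the longest protein-coding transcript of each gene in GENCODE 29. Across the 48 genes the BM1 change had Pearson r = -0.70 and Spearman rho = -0.79 with GC content, and r = 0.57 with log2 length. In LM2 the corresponding r were -0.48 and 0.39. Over 13723 genes the r with GC content was -0.38 in BM1 and -0.16 in LM2. Genes are not independent replicates, and all points of a line share the same 2 libraries. Of the 24 genes with a GC content below the set's median of 41.7%, 21 were higher in the BM1 knockdown and 11 at least 2-fold higher, with a median of 0.86. Of the 24 above it, 6 were higher and none 2-fold higher, with a median of -0.47. All genes on the same sides of 41.7% had BM1 medians of 0.58 and -0.13, and 26.8% and 5.23% of them were at least 2-fold higher. The set as a whole has a lower GC content than the genes tested, with medians of 41.7% and 48.6%. The long, AT-rich KIF14, KIF20B, CENPE, CENPF, ASPM and SMC2 are on one side, and the shorter, GC-richer AURKB, CDC20, UBE2C and BIRC5 on the other. Not every gene followed. In BM1 SPC25 (40.0% GC) changed by -1.64 and BUB3 (41.4% GC, 7828 bases) by -0.46. MKI67, at 12678 bases, changed by 0.02, and the short CDK1 (1948 bases, 37.0% GC) by 1.05.

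**Figure D3:**
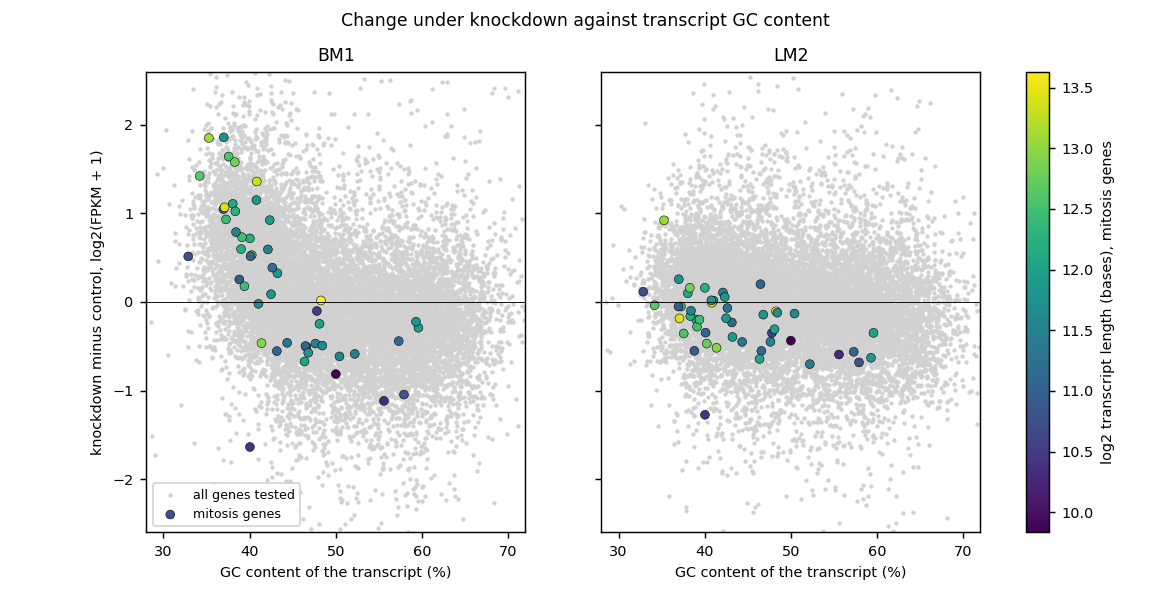
Knockdown minus control on log2(FPKM + 1) against the GC content of the transcript in BM1 (left) and LM2 (right), with the 48 genes coloured by log2 transcript length and all genes tested in grey (those beyond the axes not drawn). Over the 48 genes r is -0.70 in BM1 and -0.48 in LM2, and the AT-rich genes on the left reach above 1 in BM1 only.

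With a smooth trend with GC content and length, fitted over all genes, taken out of each change, 2 of the 48 (4.17%) passed 2-fold in BM1, against 10.9% of all genes. They were KIF18A at 1.18 and SPC25 at -1.90. The median of the set in BM1 went from 0.22 to -0.055, and 26 of the 48 (54.2%) were then lower in the BM1 knockdown, against 49.7% of all genes. In LM2, 43 (89.6%) were lower after the removal, against 53.6% of all genes, with a median of -0.29 beside -0.04 for all genes. Of the 48, 25 (52.1%) were lower in both lines, against 36.0% of all genes. CDC20 and AURKB then differed by -0.73 and -0.82 in BM1 and by -0.56 and -0.49 in LM2. BUB3, whose transcript is long at 7828 bases, went from -0.46 to -0.96 in BM1, just short of 2-fold. A remainder of the relation stayed within the set, with r = -0.43 between GC content and the BM1 change after removal. Between the controls, LM2 minus BM1 had r = -0.60 with GC content over the 48 genes, and between the knockdowns r = -0.02. Over all genes the same r were -0.24 and 0.03. The BM1 control library enters the BM1 change (r = -0.70 with GC content as deposited) and the difference between controls. It does not enter the LM2 change, where r with GC content over the 48 genes was -0.48 as deposited. Whether the quality of its RNA has a part in the 11 genes at least 2-fold higher in the BM1 knockdown was not tested.

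**Figure D4:**
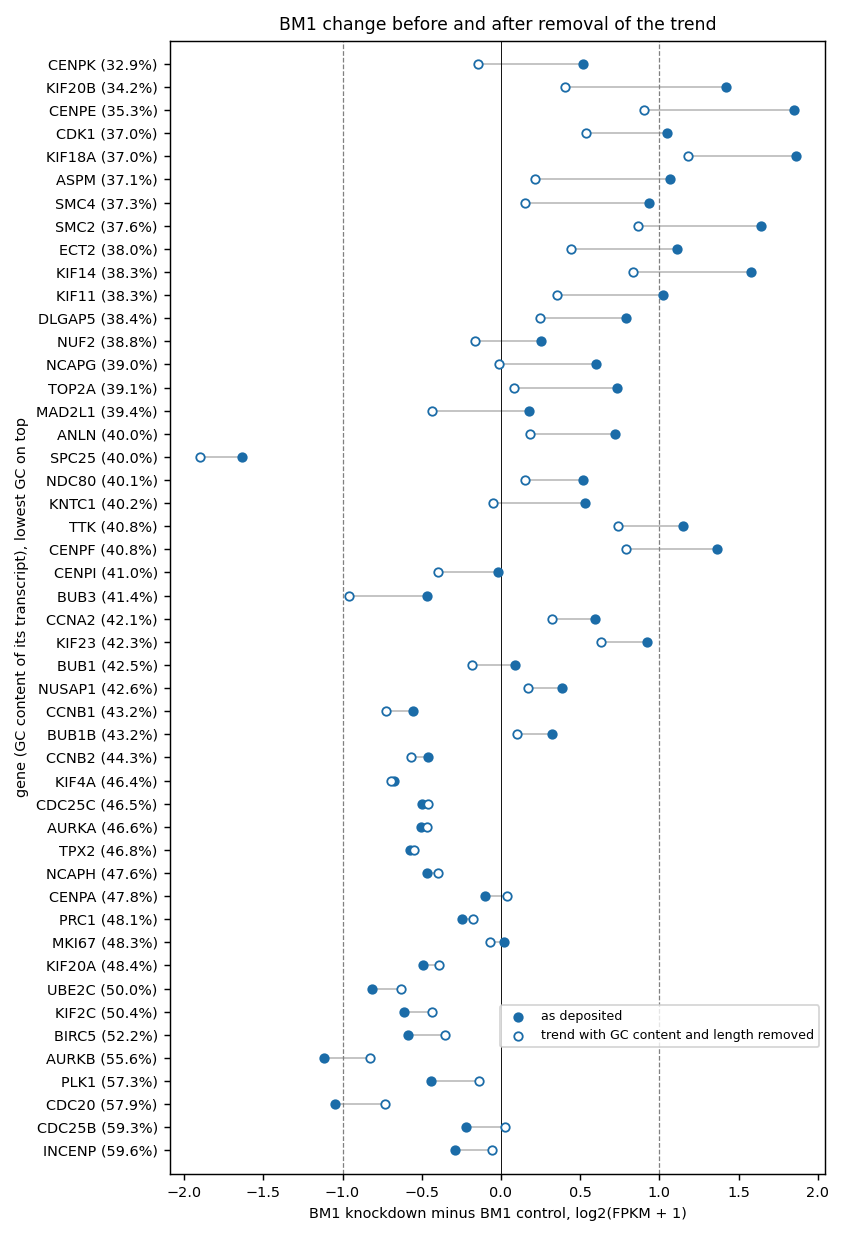
BM1 knockdown minus BM1 control on log2(FPKM + 1) for each of the 48 genes, as deposited (filled) and with the trend with GC content and length removed (open), ordered by the GC content of the transcript with the lowest on top, and dashed lines at 2-fold. Removal shifts the AT-rich genes at the top to the left, so that only KIF18A (1.18) and SPC25 (-1.90) remain beyond 2-fold.

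Between the lines, limma called none of the 48 genes over both treatments, against 4.35% of all genes, and 11 were at an unadjusted p under 0.05, against 22.4% of all genes. The controls and the knockdowns gave different pictures. In the controls 31 genes were higher in LM2 than in BM1, with a median of 0.24, and in the knockdowns 17 were, with a median of -0.19. The shares of all genes higher in LM2 were 52.2% and 45.3%. A 2-fold difference between the controls was seen in 8 genes (16.7%), against 12.2% of all genes. Of these, 6 were higher in LM2, against 6.98%, namely ASPM, CENPE, CENPF, KIF14, SMC2 and SMC4, and 2 were lower, against 5.26%, namely CDC20 and KIF2C. Between the knockdowns only NDC80 differed 2-fold, against 9.04% of all genes. It was lower in LM2, against 4.63%, and none was 2-fold higher, against 4.41%. In 17 genes (35.4%), against 20.2% of all genes, LM2 was above BM1 between controls and below it between knockdowns. The difference between controls and the BM1 change share the BM1 control library, so a low value there raises both.

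SMC4, KIF2C and NDC80 are given in full after their values were seen. SMC4, the partner of SMC2 in condensin, had BM1 levels of 23.9 FPKM without and 46.5 FPKM with the knockdown, and LM2 levels of 56.9 and 54.9 FPKM. KIF2C, the kinesin that takes microtubules apart at centromeres, had 113 FPKM in control and 73.6 in knockdown cells of BM1, and 54.9 and 50.1 FPKM in those of LM2. NDC80 measured 41.5 (control) and 59.8 FPKM (knockdown) in BM1, against 33.7 and 26.3 FPKM in LM2. SMC4 was lower and KIF2C and NDC80 were higher in both BM1 libraries than in both LM2 libraries. Both LM2 libraries lay above both BM1 libraries in 10 of the 48 genes, against 19.4% of all genes, and below them in 6, against 21.6%. With the trend with GC content and length removed, ASPM, CENPF, KIF14 and SMC2 still differed 2-fold between the controls (4 of 48, 8.33%, against 9.89% of all genes) and NDC80 between the knockdowns (2.08%, against 9.06%). Counted in either direction, both shares are below those of all genes. Between the controls all 4 were higher in LM2, against 742 of 13723 genes, which is a smaller share than 4 of 48. A 2-fold lower LM2 value between the knockdowns was seen in NDC80, against 635 of 13723 genes.

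**Figure D5:**
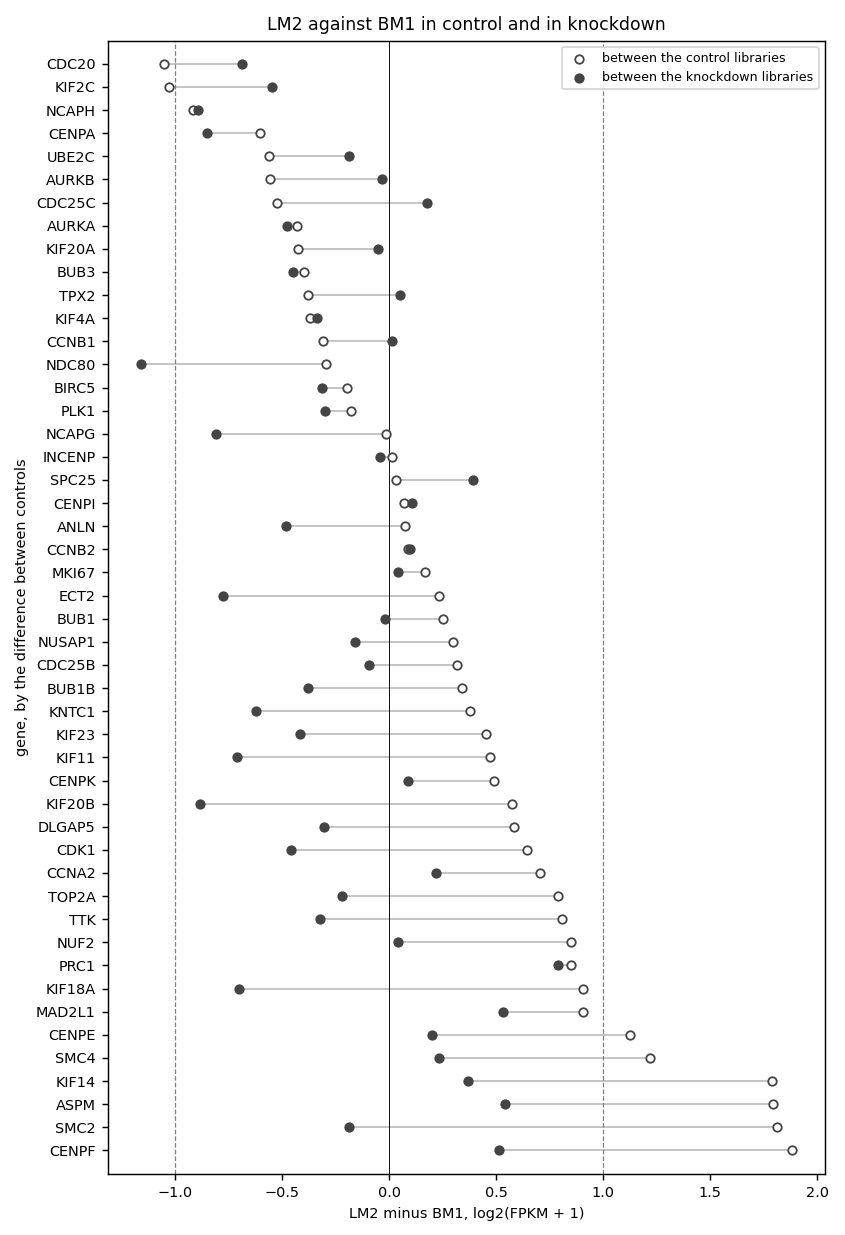
LM2 minus BM1 on log2(FPKM + 1) for each of the 48 genes, between the 2 control libraries (open) and between the 2 knockdown libraries (filled), ordered by the first, with dashed lines at 2-fold. CENPF, SMC2, ASPM and KIF14 lie at 1.79 to 1.88 between controls and at -0.19 to 0.54 between knockdowns.

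A wider list of 147 genes of the mitotic machinery and its regulators, of which 145 were in the table, was read beside the 48. In the knockdown test 1 gene of the 145 rose and 2 fell (2.07%, against 5.47% of all genes). MYBL2, which encodes the B-MYB factor of the mitotic programme, fell in BM1 (50.7 to 15.3 FPKM) and in LM2 (37.1 to 10.6 FPKM). Its changes were nearly equal in the 2 lines, -1.67 and -1.72, and over both -1.70 ± 0.25 on the log2 scale (limma, adjusted p = 0.0124). SMC1A, a cohesin subunit, fell in BM1 (28.4 to 8.83 FPKM) and in LM2 (107.8 to 11.6 FPKM), on average by more than any other gene of the list (-2.34 ± 0.36 on the log2 scale, limma, adjusted p = 0.0137), and overlaps RIBC1 on the opposite strand. CDKN1B, which encodes the CDK inhibitor p27, rose in BM1 (12.5 to 34.9 FPKM) and in LM2 (22.4 to 42.6 FPKM, 1.15 ± 0.27 on the log2 scale, limma, adjusted p = 0.0430). The call of CDKN1B was lost with a pseudocount of 0.5 (limma, adjusted p = 0.0621) and with the GC and length trend removed (limma, adjusted p = 0.0529), where MYBL2 and SMC1A kept theirs. CDKN1B overlaps another listed gene on the same strand.

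Other genes of that list did not pass. FOXM1, a transcription factor of G2 and M phase, measured 31.1 (control) and 23.7 FPKM (knockdown) in BM1, against 36.8 and 30.0 FPKM in LM2 (limma, adjusted p = 0.451). CDKN1A, which encodes p21, had 15.8 and 39.7 FPKM in BM1, against 28.3 and 18.6 FPKM in LM2, with opposite signs in the 2 lines. ZWILCH, a partner of KNTC1, had 10.98 and 8.03 FPKM in BM1, against 13.6 and 3.21 FPKM in LM2 (limma, adjusted p = 0.0979). DEPDC1, listed with the cytokinesis genes, had 8.57 and 23.2 FPKM in BM1, against 10.3 and 19.2 FPKM in LM2 (limma, adjusted p = 0.0510). NFYB, a subunit of NF-Y, had 4.80 and 16.3 FPKM in BM1, against 5.79 and 9.72 FPKM in LM2 (limma, adjusted p = 0.0632). The medians of the 145 were -0.0044 in BM1 and -0.20 in LM2, beside 0.22 and -0.19 for the 48. In BM1 19 of the 145 were at least 2-fold higher (13.1%, against 10.1% of all genes), and in LM2 none was.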

How the data were processed

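The deposited table gives FPKM per gene for 4 libraries, computed by the authors. The submitters' processing notes name STAR 2.5.3a, Cuffdiff 2.2.1 and GRCh37, with no role for each, and the sources used here do not give the annotation release. Of 20369 entries, 40 with a repeated gene ID (3 IDs) were left out. Depth was inferred from the steps of low values (1624 genes), where 36.0% to 44.1% of values lay within 0.02 of a whole fragment, too few for a count test. Values were compared as log2(FPKM + 1) where a gene's mean FPKM reached 1 (all 48 did), in limma 3.58.1 (R 4.3.3) with line and treatment as terms. The code was run on values simulated with independent errors of a shared variance. They held no trend with GC content or length and no difference between the lines' changes. That run therefore does not show whether the calls hold in these libraries. Libraries were paired by line, since each pair comes from the same cell line. GC content and length came from GENCODE 29 by gene ID (48 of 48 genes matched, and 13723 of those tested), and the trend was a loess fit with a span of 0.3. The genes and lists were chosen with earlier results of these data known. Named in full are the genes called or at least 2-fold changed in a line, and those with the largest or smallest average change of a role. From the wider list these are the called genes, the 3 with the largest average change in each direction, and CDKN1A, FOXM1 and MYBL2. Of the 48 genes 2 overlap another listed gene on the same strand and 17 on the opposite strand, and 11 have pseudogenes named after them. Alternatives were pseudocounts of 0.1 and 0.5, no filter, quantile normalization, median-ratio size factors, no pairing, a 1.5-fold rule, removal of the GC and length trend, and leaving out each library.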

Additional observations from a re-analysis of the deposited data

Results flagged for a closer look

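In 8 of the 48 genes the knockdown library was above its control in BM1 and below it in LM2, with changes at least 2-fold apart. Each line has 1 library per treatment, so this difference was not tested. The share of all genes that met both conditions was not counted. Taken apart, the opposite signs were seen in 17.3% of all genes and 37.5% of the 48. A BM1 change at least 2-fold above that in LM2 was seen in 7.29% and 25%. The change in BM1 minus that in LM2 (log2) was 1.998 for SMC2, 1.46 for KIF20B, 1.37 for CENPF, 1.25 for ASPM, 1.18 for KIF11 and 1.10 for CDK1. It was 1.01 for TOP2A and 1.0007 for KNTC1, which were named after their values were seen. TOP2A had BM1 levels of 86.1 FPKM without and 144 FPKM with the knockdown, and LM2 levels of 149.6 and 123 FPKM. KNTC1 had 17.9 FPKM in control and 26.4 in knockdown cells of BM1, and 23.7 and 16.8 FPKM in those of LM2. All 8 have a transcript GC content below the median of the set. For 7 of them the BM1 control was the lowest of the 4 libraries, the exception being KNTC1. It was the lowest for 47.9% of the 48 and 31% of all genes. Under the rule that picked the 8, only the BM1 control or the LM2 knockdown can be lowest. The count of 7 is therefore drawn from the values used to pick them and is no separate evidence.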

How the results depend on the processing

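The 2 calls among the 48 genes (CENPE and SPC25) and the 3 in the wider list (MYBL2, SMC1A and CDKN1B) became 0 and 0 with a pseudocount of 0.1, with no filter on low values and with quantile normalization, where the 762 calls over all genes became 27, 0 and 0. Without the replicate block, that is without pairing by line, they were also 0 and 0, and so were the calls over all genes. Leaving out each library in turn leaves an unpaired arm of 1 library. No call of the knockdown test held there, and why was not tested. At an unadjusted p under 0.05 (limma) 9 of the 48 became 4 (pseudocount of 0.1), 12 (no filter), 7 (quantile normalization), 3 (no pairing) and 1 to 11 (without 1 library). Removal of the GC and length trend left 1 call among the 48, SPC25, and 510 over all genes. In BM1 the 14 genes past 2-fold became 2 with the trend removed and 25 at a 1.5-fold rule. In LM2 the 1 gene became 7 at 1.5-fold. Between controls 8 became 4 with the trend removed and 18 at 1.5-fold, and between knockdowns 1 became 11 at 1.5-fold. The shares of all genes at 1.5-fold were not counted, nor those at an unadjusted p under 0.05 in the alternatives. Those counts therefore have no background to be read against. The median BM1 change of 0.22 became -0.055 with the trend removed. The sign of the average change turned for ASPM with the trend removed (-0.095). Leaving out 1 library sets 2 libraries against 1, assumed to vary like the others, so the value holds the difference between lines and says nothing about the stability of the knockdown change. Such values were -0.27 to 1.62 for CENPF, -0.024 to 1.76 for KIF14, -0.46 to 1.34 for ASPM, -0.26 to 1.55 for SMC2 and -0.18 to 0.88 for CDKN1A (-0.053 without the BM1 control). Of 242 values of single genes under alternatives, 7 changed sign (6 of them without 1 library), 43 lost a call, 1 gained one (ZWILCH, with the trend removed, adjusted p = 0.0445 by limma) and 191 did none of these. Precision is limited by 1 library per group, and the cause of each move was not tested.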
